A study of Mus musculus with 52 samples.

Results

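The neuron-enriched miRNAs examined here are miR-128-3p, miR-137-3p, miR-137-5p, miR-153-3p, miR-138-5p, miR-7b-5p, miR-9-3p, miR-9-5p and miR-124-3p, 9 of the 1900 miRNAs in the deposited counts. The rule lists them by name, and they were chosen with earlier results of these data known. The mice were of the strain C57B/6JRj and, per the labels, 20 weeks of age in every group. They had been kept under environmental enrichment (EE) or in the home cage (HC) for 10 or 2 weeks, and the DG (dentate gyrus) and CA (cornu ammonis) subregions of the hippocampus were dissected under a microscope. This gave 8 groups and 52 small RNA libraries: 10wEE_DG (8), 10wHC_DG (6), 2wEE_DG (5), 2wHC_DG (6), 10wEE_CA (8), 10wHC_CA (6), 2wEE_CA (7) and 2wHC_CA (6). Nothing in the labels tells whether the libraries of a group are from separate animals, so the p-values measure the spread between libraries, which may be partly technical. Nor do the labels tell whether a DG and a CA library came from the same animal, and the main fits treat all libraries as independent.

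MicroRNAs are cut from a hairpin precursor of which both arms (5p and 3p) can give a mature strand, and a mature strand loaded into Argonaute represses mRNAs that pair with its seed, bases 2 to 8. miR-124, miR-9, miR-128, miR-137, miR-138, miR-153 and miR-7 are known as miRNAs of neurons. miR-128 limits neuronal excitability in mice, miR-137 acts on dendrite growth and presynaptic function, and miR-138 acts on dendritic spine size in rat hippocampal neurons. miR-153 and miR-7 both repress the mRNA of alpha-synuclein, miR-9 acts in neural progenitors and their differentiation, and miR-124 represses the splicing regulator Ptbp1.

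The mature sequences are given because the seeds separate these miRNAs and because the stretch shared between hairpins bears on what the counts can hold. They are from RefSeq (GRCm38.p6), 5′ to 3′, with the seed in capitals, for the 8 of 9 miRNAs that matched by name (miR-124-3p did not).
mmu-miR-128-3p: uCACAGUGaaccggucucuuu
mmu-miR-137-3p: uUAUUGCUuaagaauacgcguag
mmu-miR-137-5p: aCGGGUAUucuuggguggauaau
mmu-miR-153-3p: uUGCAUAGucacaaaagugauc
mmu-miR-138-5p: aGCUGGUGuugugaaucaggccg
mmu-miR-7b-5p: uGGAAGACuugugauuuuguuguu
mmu-miR-9-3p: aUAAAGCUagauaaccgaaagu
mmu-miR-9-5p: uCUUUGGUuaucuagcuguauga
mmu-miR-7a-5p: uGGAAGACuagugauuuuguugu
The first 8 carry 8 distinct seeds. Among the 1679 mature mouse miRNA names in the sequence table, the single seed mate of any of them was miR-7a-5p, shown last. It differs from miR-7b-5p by A10U (miR-7a-5p base first, positions counted from 1 at the 5′ end) and is 23 bases long, against 24 in miR-7b-5p.

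miR-128, miR-138, miR-9 and miR-124 are each made from several gene copies, and their counts have to be read with that in mind. miR-137 comes from 1 hairpin on chromosome 3 (mm10, chr3:118433857-118433929, plus strand, in an exon of the non-coding transcript Gm26871). miR-153 comes from 1 hairpin on chromosome 12 (chr12:117250817-117250885, plus strand, in an intron of Ptprn2), and miR-7b from 1 hairpin on chromosome 17 (chr17:56242988-56243098, plus strand, with no host gene annotated). miR-128-3p comes from 2 hairpins, in introns of R3hdm1 (chr1:128202361-128202430, plus strand) and Arpp21 (chr9:112118636-112118711, minus strand). miR-138-5p comes from 2 hairpins on chromosomes 9 and 8, miR-9 from 3 on chromosomes 3, 13 and 7, and miR-124 from 3 on chromosomes 14, 3 and 2.

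Over the 52 libraries miR-128-3p had 2853444 counts, miR-153-3p 719165, miR-137-3p 170968, miR-138-5p 70576, miR-7b-5p 9563, miR-9-5p 1746, miR-137-5p 1588, miR-9-3p 570 and miR-124-3p 57. Together the 9 held 2.38% of all miRNA counts, and miR-128-3p alone held 1.77% and ranked 15 among the 1900. Reads that aligned to several places were 59.3 to 71% of the reads tallied for a library, none of which was listed as unaligned. They entered no miRNA count. The stretch identical over all hairpins of a miRNA was 23 bases for miR-128-3p, 24 for miR-138-5p, 25 for miR-9-3p and 26 for miR-9-5p, in each case the whole mature strand. The identical stretch ended with the last mature base in miR-128-3p and in miR-138-5p, but ran on for 3 bases past it in miR-9-5p. How the counted reads of these 4 miRNAs were placed was not tested. The order of the 9 by counts is therefore an order among uniquely placed reads, not of abundance in the tissue.

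The opposite arms of miR-7a, miR-138 and miR-128, each from a single hairpin, were counted beside the shared arms. miR-7a-5p, whose identical stretch over its 2 hairpins is 24 bases, had 153 counts. The opposite arms of those same hairpins, each with its own sequence, had 17507 counts (miR-7a-1-3p) and 14324 counts (miR-7a-2-3p). For miR-138 the order was the other way round: the shared miR-138-5p had 70576 counts, against 16556 for miR-138-1-3p and 4169 for miR-138-2-3p. miR-128-1-5p had 46268 counts and miR-128-2-5p 3532, both far below the shared miR-128-3p. miR-124-5p, the other arm of miR-124, had 218 counts. Its name does not tie it to 1 of the 3 miR-124 hairpins, and reads aligned to several of them would not be counted.

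Total miRNA counts ran from 480792 to 6706855 per library, so a floor of 3 counts lay between 0.447 and 6.24 CPM (counts-per-million of all miRNA counts in a library) before scaling. Levels are given in CPM scaled by TMM, which lines up the bulk of the miRNAs between libraries. Floors cover counting error only, while the 95% intervals of fold changes come from the fits and hold the spread between libraries. DG libraries were shallower, with 1117213 to 3159957 counts, against 3144399 to 6706855 in CA leaving out library 3 of 10wEE_CA. That library had 480792 counts and stood apart: the leading principal component, with 74.8% of the variance among CA libraries, scored it at 39.3, against -2.58 to -0.221 in the other CA libraries. It was high in miR-137-3p (2716 CPM), miR-153-3p (9114 CPM) and miR-7b-5p (168 CPM), and low in miR-138-5p (100.5 CPM). Results that rest on it are therefore given with and without it.

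All 8 miRNAs other than miR-124-3p had counts in every library and passed the filter on low counts in each fit. miR-124-3p was at 0 in 23 of the 52 libraries and had at most 6 counts in any, so it was not tested. Its level was 0 to 1.43 CPM in DG, on at most 2 counts, and 0 to 1.45 CPM in CA, on at most 6, and no difference was detectable at this depth.

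**Figure D1:**
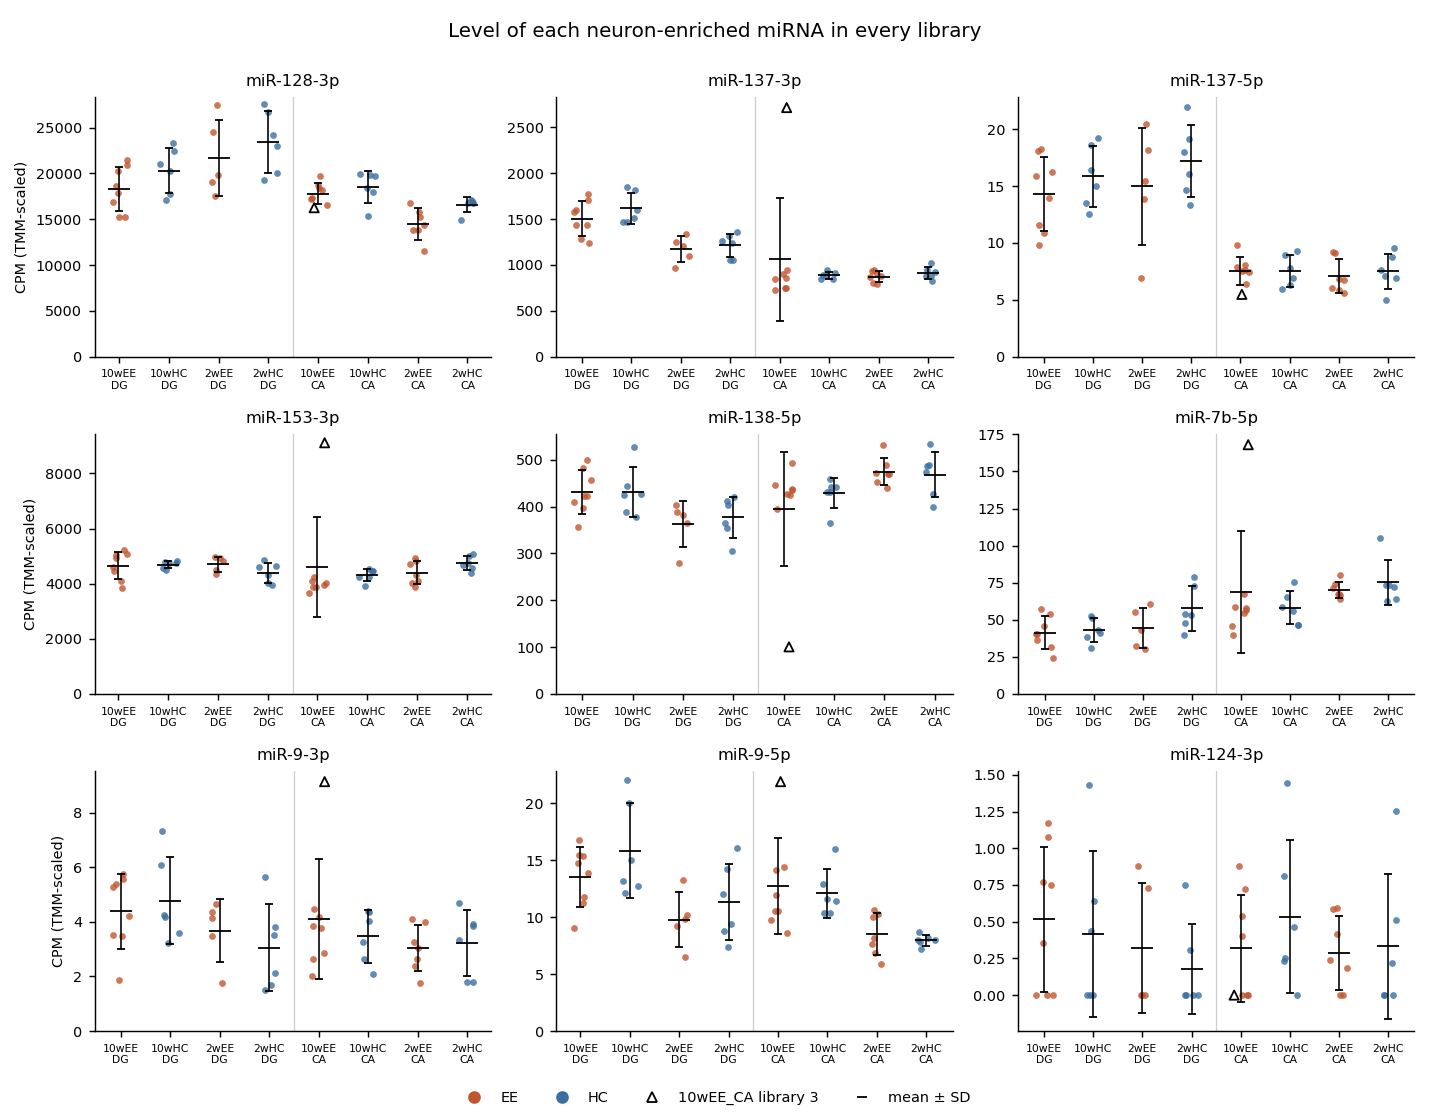
Level of each of the 9 miRNAs in TMM-scaled CPM (y axes, linear) in every library, by group (x axes); orange points are EE, blue points HC, bars the mean ± SD, and the triangle library 3 of 10wEE_CA. miR-137-5p sits between 6.96 and 22 CPM in DG and between 5.02 and 9.81 CPM in CA, while the EE and HC points of each pair of groups overlap.

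The first comparison was between the regions. Set against CA over the 4 housing groups, DG had more miR-137-5p, miR-137-3p, miR-9-5p and miR-128-3p and less miR-7b-5p: 5 of the 8 tested miRNAs passed the threshold of an adjusted p of 0.05 (edgeR's quasi-likelihood test, two-sided, Benjamini-Hochberg adjustment over all 593 miRNAs tested). That share has to be read against the background, in which 461 of the 593 (77.7%) passed, 214 higher and 247 lower in DG. The median log2 fold change was 0.27 over the 8 and -0.04 over all 593. The count was 7 of 8 without library 3 of 10wEE_CA, against 472 of 594 (79.5%), because miR-153-3p and miR-138-5p then passed as well. In dissected tissue, fewer cells of a type and less RNA per cell cannot be told apart, and depth and region cannot be told apart here either.

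miR-137-5p showed the widest separation. It had 6.96, 15.8 and 22 CPM (lowest, median, highest) in the 25 DG libraries, against 5.02, 7.45 and 9.81 CPM in the 27 CA libraries. In 24 of 25 DG libraries it was above every CA library, and the exception was library 2 of 2wEE_DG, with 12 counts. The log2 fold change was 1.04 (SE 0.09, adjusted p = 2.06e-15), or 1.07 without library 3 of 10wEE_CA (adjusted p = 2.39e-16). These levels rest on 3 to 51 counts per library. In DG miR-137-5p had 15.0023 to 21.9805 CPM in the libraries with at most 1393901 counts. In those with at least 2511412 counts it had 9.85926 to 16.4 CPM, and the part of depth was not tested.

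miR-137-3p, the abundant strand of the same hairpin, had 967, 1356 and 1848 CPM in DG, against 725, 883 and 2716 CPM in CA. The highest CA value was library 3 of 10wEE_CA, and the next highest CA library had 1023 CPM. Its log2 fold change was 0.55 (SE 0.08, adjusted p = 6.74e-08) with that library and 0.68 (SE 0.04, adjusted p = 2.15e-21) without it. Both arms of miR-137 were thus higher in DG. Pooled over the housing groups, the 5p arm was also larger relative to the 3p arm within a DG library: the log2 ratio of 5p to 3p counts averaged -6.49 ± 0.48 in DG (SD, n = 25) and -6.93 ± 0.44 in CA (SD, n = 27), a difference of 0.44 (two-sided permutation test with 100000 resamples, p = 0.00064, 0.00112 after Benjamini-Hochberg adjustment over 7 such ratios). The difference was 0.37 (adjusted p = 0.00112) without library 3 of 10wEE_CA. It was not alike in all groups, which the pooled test does not take into account. The ratio averaged -6.72 in 10wEE_DG and -6.95 in 10wEE_CA (-6.70 without library 3, so that the groups were level), -6.66 in 10wHC_DG and -6.88 in 10wHC_CA, -6.34 in 2wEE_DG and -6.95 in 2wEE_CA, and -6.13 in 2wHC_DG and -6.93 in 2wHC_CA. The regions were thus furthest apart at 2 weeks, and whether the difference itself changed with time was not tested. In DG the ratio was -6.618 to -5.531 in the libraries with at most 1393901 counts. It was -7.242 to -6.413 in DG libraries with at least 2511412 counts, and -7.32 to -6.43 in CA without library 3 of 10wEE_CA. The part of depth was not tested.

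miR-128-3p had 15220, 20230 and 27550 CPM in DG, against 11540, 16820 and 19940 CPM in CA. In 14 of 25 DG libraries it was above all CA libraries, and the ranges overlapped. In DG it had 21077.3 to 27549.2 CPM in the libraries with at most 1393901 counts. In those with at least 2511412 counts it had 15215.6 to 20026.4 CPM, and the part of depth was not tested. The log2 fold change of miR-128-3p was 0.31 (SE 0.05, adjusted p = 9.89e-08), or 0.35 without library 3 of 10wEE_CA (adjusted p = 1.06e-08). The opposite arms, which tell the 2 hairpins apart, did not follow it. miR-128-1-5p, from the R3hdm1 intron, was lower in DG (log2 fold change -0.29, SE 0.10, adjusted p = 0.00608, and -0.30 without library 3 of 10wEE_CA), and miR-128-2-5p, from the Arpp21 intron, had a log2 fold change of 0.00 (95% interval -0.16 to 0.15). The log2 ratio of miR-128-1-5p to miR-128-2-5p counts averaged 3.48 ± 0.31 in DG (SD, n = 25) and 3.75 ± 0.53 in CA (SD, n = 27), and the difference of -0.28 had an adjusted p of 0.0304 in the permutation test. Without library 3 of 10wEE_CA it was -0.36 (adjusted p = 0.000245).

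miR-7b-5p went the other way, with 24.1, 43.2 and 78.8 CPM in DG, against 39.4, 65.3 and 168 CPM in CA. In 7 of 25 DG libraries it was below every CA library, and the log2 fold change was -0.51 (SE 0.10, adjusted p = 1.94e-05), or -0.41 (SE 0.08, adjusted p = 1.53e-05) without library 3 of 10wEE_CA. The other arm of the same hairpin, miR-7b-3p, was higher in DG (0.28, SE 0.10, adjusted p = 0.0133, and 0.31 without that library). The log2 ratio of 3p to 5p counts averaged -1.88 ± 0.64 in DG (SD, n = 25) and -2.71 ± 0.63 in CA (SD, n = 27), a difference of 0.83 (p = 2e-05, the smallest the 100000 resamples can give, adjusted p = 7e-05). It was 0.73 with the same adjusted p without library 3 of 10wEE_CA. The group means of this ratio ran from -2.09 to -1.21 in DG and from -2.86 to -2.33 in CA. In DG the ratio was -2.115 to -0.422 in the libraries with at most 1393901 counts. It was -3.233 to -1.973 in DG libraries with at least 2511412 counts, and -3.55 to -1.98 in CA without library 3 of 10wEE_CA. The part of depth was not tested. miR-7a-5p, the seed mate, was too low to test, but both of its opposite arms were higher in DG: miR-7a-2-3p by 0.93 (SE 0.06, adjusted p = 1.31e-18) and miR-7a-1-3p by 0.33 (SE 0.06, adjusted p = 5.55e-07). The log2 ratio of miR-7a-1-3p to miR-7a-2-3p averaged -0.05 ± 0.31 in DG and 0.57 ± 0.42 in CA (SD, n = 25 and 27), and the difference of -0.62 (-0.55 without library 3 of 10wEE_CA) had an adjusted p of 7e-05 in both cases. It was not alike in all groups, which the pooled test does not take into account. The ratio averaged -0.43 in 2wHC_DG and 0.42 in 2wHC_CA, and -0.19 in 2wEE_DG and 0.50 in 2wEE_CA. At 10 weeks it averaged 0.17 in 10wHC_DG and 0.54 in 10wHC_CA, and 0.15 in 10wEE_DG and 0.78 in 10wEE_CA (0.54 without library 3). Whether the difference changed with time was not tested.

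miR-138-5p had 279, 404 and 528 CPM in DG, against 101, 442 and 534 CPM in CA. The log2 fold change was -0.14 with library 3 of 10wEE_CA (SE 0.08, adjusted p = 0.079) and -0.14 without it (SE 0.04, adjusted p = 0.00287), so that only the second fit called it lower in DG. DG libraries with at most 1393901 counts had 279 to 445 CPM, and those with at least 2511412 counts 388 to 499 CPM. CA without library 3 of 10wEE_CA had 366 to 534 CPM, and the part of depth was not tested. Both opposite arms were higher in DG, miR-138-1-3p by 1.06 (SE 0.12, adjusted p = 4.99e-11) and miR-138-2-3p by 0.31 (SE 0.06, adjusted p = 1.95e-06). The log2 ratio of miR-138-1-3p to miR-138-2-3p averaged 2.38 ± 0.66 in DG (SD, n = 25) and 1.71 ± 0.41 in CA (SD, n = 27), with a difference of 0.67 (permutation test, adjusted p = 9.33e-05), or 0.61 (adjusted p = 0.00014) without library 3 of 10wEE_CA. In DG the ratio was 2.535 to 3.866 in the libraries with at most 1393901 counts. It was 1.600 to 2.494 in DG libraries with at least 2511412 counts, and 1.315 to 2.169 in CA without library 3 of 10wEE_CA. The part of depth was not tested.

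miR-153-3p was nearly level between the regions, with 3834, 4630 and 5214 CPM in DG, against 3647, 4301 and 9114 CPM in CA. Its log2 fold change was 0.03 (95% interval -0.08 to 0.15) with library 3 of 10wEE_CA and 0.12 (SE 0.03, adjusted p = 0.000507) without it. miR-153-5p, the minor arm, was higher in DG by 0.22 (SE 0.05, adjusted p = 0.000176). The log2 ratio of miR-153-5p to miR-153-3p counts differed by 0.17 between DG and CA (permutation test, adjusted p = 0.0532), and by 0.11 (adjusted p = 0.104) without library 3 of 10wEE_CA. It averaged -4.54 in 2wHC_DG and -4.91 in 2wHC_CA, and -4.57 in 2wEE_DG and -4.93 in 2wEE_CA. At 10 weeks it averaged -4.60 in 10wHC_DG and -4.56 in 10wHC_CA, and -4.65 in both 10wEE_DG and 10wEE_CA (-4.43 in the latter without library 3). Whether the difference changed with time was not tested.

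The miR-9 strands were sparse, with 7 to 59 counts of miR-9-5p and 2 to 27 of miR-9-3p in a library. miR-9-5p had 6.51, 12.7 and 22 CPM in DG, against 5.87, 10.3 and 21.9 CPM in CA (log2 fold change 0.32, SE 0.09, adjusted p = 0.00142, and 0.30 with adjusted p = 0.0557 in enriched libraries alone); without library 3 of 10wEE_CA it was 0.37. miR-9-3p had 1.5, 4.14 and 7.33 CPM in DG, against 1.78, 3.32 and 9.13 CPM in CA (0.23, 95% interval -0.06 to 0.53, and 0.29 without that library). The log2 ratio of the 2 arms differed by -0.07 between DG and CA (adjusted p = 0.654), which was the smallest difference of the 7 ratios.

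**Figure D2:**
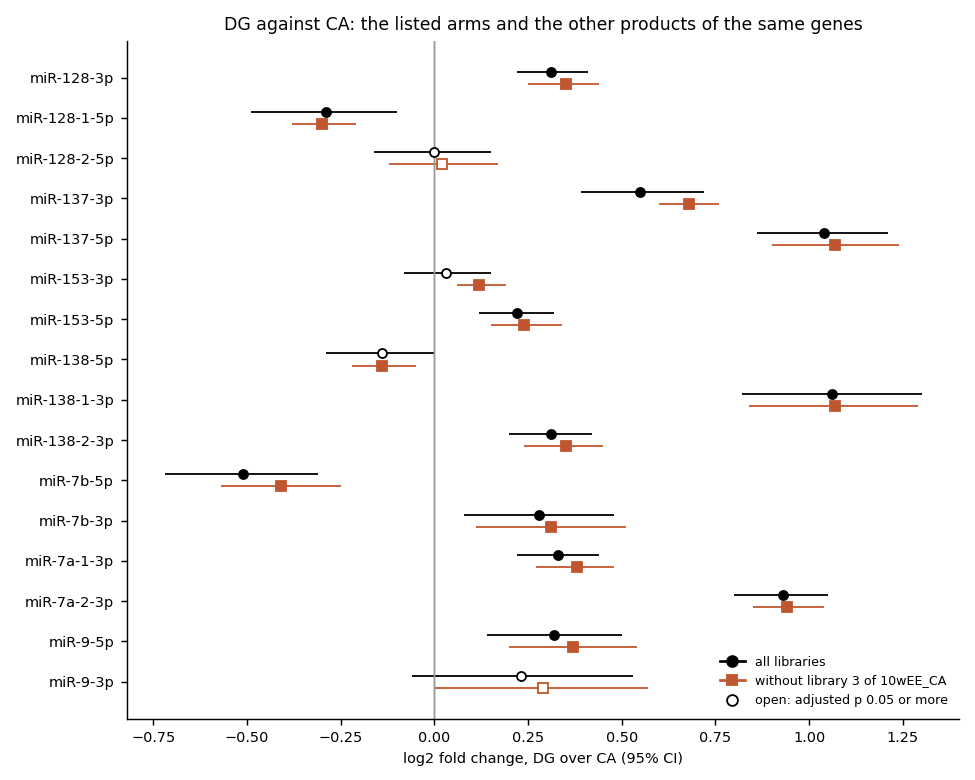
Log2 fold change of DG over CA (x axis, with 95% interval) for the 8 tested miRNAs and the 8 tested other arms of the same genes and of the miR-7a genes, with all libraries (black circles) and without library 3 of 10wEE_CA (orange squares); open symbols did not pass an adjusted p of 0.05. miR-7b-5p at -0.51 stands opposite miR-7b-3p at 0.28, and miR-138-5p at -0.14 opposite miR-138-1-3p at 1.06.

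**Figure D3:**
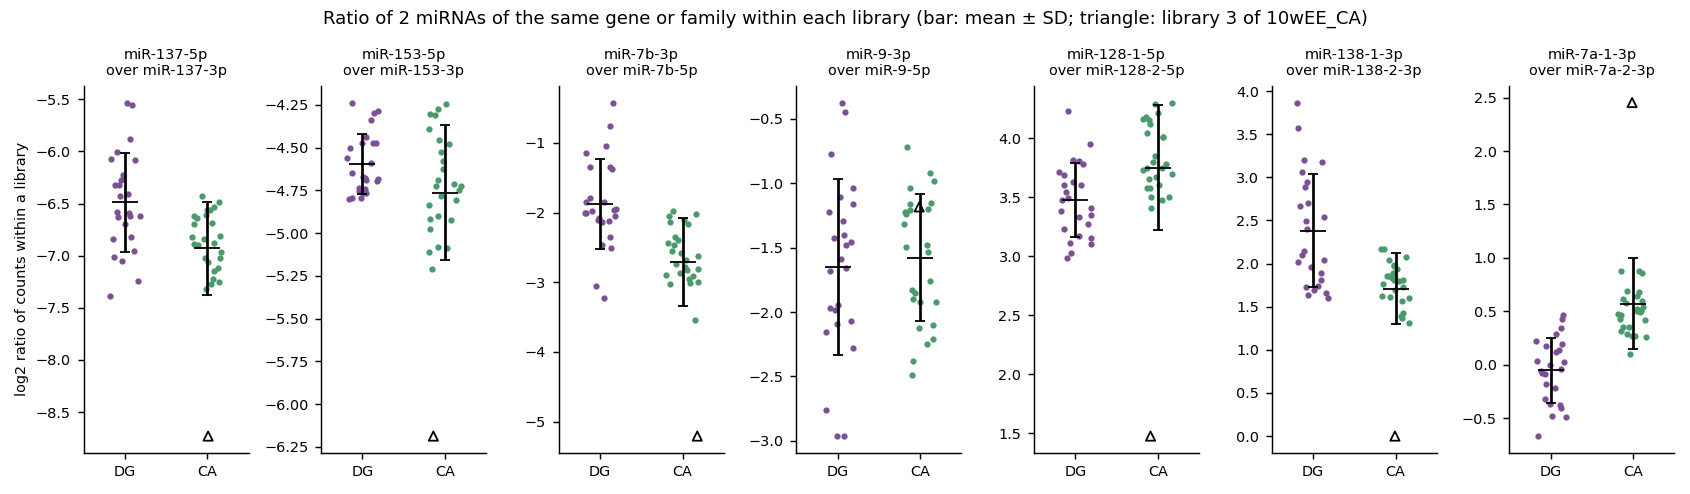
Log2 ratio of the counts of 2 arms or sister arms within a library (y axes) in DG (left, purple) and CA (right, green); each point is a library, bars are the mean ± SD, and the triangle is library 3 of 10wEE_CA. For miR-7b, DG averages -1.88 and CA -2.71, while for miR-9 the averages are -1.65 in DG and -1.58 in CA.

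Over the opposite arms and miR-7a products as a list, 8 of 10 were tested, and 6 were higher and 1 lower in DG, with a median log2 fold change of 0.30. The other neuron-enriched miRNAs moved mostly the opposite way. Of 16 in that list, 14 were tested, 3 were higher and 10 lower in DG (9 lower without library 3 of 10wEE_CA), and the median was -0.57 (-0.50 without that library). The 3 higher were miR-218-5p (0.36), miR-218-2-3p (0.85) and miR-551b-3p (0.32), and those furthest below were miR-129-1-3p (-1.26) and miR-592-5p (-0.98). The 2 that could not be tested were miR-129-5p, with 26 counts, and miR-135a-5p, with 93. Neuron-enriched miRNAs thus differed between the regions in both directions. So did the miRNAs at large, of which 461 of 593 (77.7%) passed, 214 higher and 247 lower in DG.

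Markers of other cell types differed between the regions too, beside the 461 of 593 (77.7%) called among all miRNAs. The 3 tested oligodendrocyte miRNAs were all lower in DG (summed level 2170 to 3700 CPM in DG, against 6160 to 11000 CPM in CA, the highest in library 3 of 10wEE_CA), with miR-219a-5p at or under 3 counts in all libraries. Of 6 astroglial miRNAs 5 were lower, or 4 lower and 1 higher without library 3 of 10wEE_CA (59100 to 72700 CPM in DG, against 72000 to 90500 CPM in CA, the highest again in that library). Of 7 choroid plexus and ependymal miRNAs 2 were higher and 4 lower (12700 to 24000 CPM in DG, against 7870 to 20000 CPM in CA), and of 4 erythrocyte miRNAs 2 were lower (176 to 501 CPM in DG, against 275 to 979 CPM in CA). None of 3 vascular miRNAs (miR-126a-5p was at 0) and none of 4 microglial and leukocyte miRNAs passed in the fit of all libraries, and 2 of the last 4 were higher in DG without library 3 of 10wEE_CA. The part of cell composition in the differences of the neuron-enriched miRNAs was not tested.

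The second comparison was between 10 and 2 weeks of housing. By the labels the mice were 20 weeks old at both times, and no batch is named. Uniquely aligned reads outside any miRNA were 3.37 to 3.96% of the reads tallied for 2 week CA libraries and 4.28 to 4.78% at 10 weeks. In DG they were 3.81 to 4.45% at 2 weeks and 4.88 to 6.34% at 10 weeks. The times thus separated fully by this share in both regions. Weeks of housing cannot be told apart from a batch or cohort here. In DG, miR-137-3p was higher after 10 weeks under both housings. In 10wHC_DG it had 1464, 1553 and 1848 CPM (lowest, median, highest), against 1056, 1248 and 1356 CPM in 2wHC_DG, and all 6 libraries of 10wHC_DG were above all 6 of 2wHC_DG. The log2 fold change was 0.41 (SE 0.09, adjusted p = 0.0062). It was 1 of 8 tested miRNAs called, against 84 of 525 in the background (16%). How many of all miRNAs separated these groups fully was not counted. Libraries 1, 4 and 6 of 2wHC_DG, the shallowest of that group at 1199893 to 1332593 counts, had its lowest miR-137-3p (1056 to 1238 CPM). Libraries 2 and 3 of 10wHC_DG, with 1344283 and 1385460 counts, had 1464 and 1509 CPM. Median depth was 1438110 counts in 2wHC_DG and 2046240 in 10wHC_DG, and the part of depth was not tested. In 10wEE_DG miR-137-3p had 1244, 1503 and 1779 CPM, against 1256, 1212, 1343, 1093 and 967 CPM in libraries 1 to 5 of 2wEE_DG. These groups overlapped, and the log2 fold change was 0.35 (SE 0.09, adjusted p = 0.0163), again 1 of 8 called, against 52 of 525 (9.9%). Libraries 4 and 5 of 2wEE_DG had the lowest miR-137-3p and, with 1393901 and 1117213 counts, the least depth of that group. Without library 4 the adjusted p was 0.0682 (0.33), and without library 5 it was 0.0835 (0.29). miR-137-5p did not follow its partner: its log2 fold change was -0.11 (95% interval -0.51 to 0.29) in home cage and -0.05 (95% interval -0.45 to 0.35) under enrichment.

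None of the other 7 passed in DG at 10 against 2 weeks. The nearest were miR-9-5p in home cage, at 15.8 ± 4.18 CPM in 10wHC_DG and 11.3 ± 3.38 CPM in 2wHC_DG (SD, n = 6 each; 0.50, edgeR adjusted p = 0.095), and miR-138-5p under enrichment, at 431 ± 46.9 CPM in 10wEE_DG (SD, n = 8) and 363 ± 49.2 CPM in 2wEE_DG (SD, n = 5; 0.24, edgeR adjusted p = 0.118). miR-128-3p had negative log2 fold changes of -0.21 (adjusted p = 0.236) in home cage and -0.25 (adjusted p = 0.155) under enrichment. Of the opposite arms, miR-7a-1-3p was higher after 10 weeks in both housings (0.48, adjusted p = 0.0163 in home cage, and 0.43, adjusted p = 0.0319 under enrichment). miR-7b-3p (-0.99, SE 0.22, adjusted p = 0.00713) and miR-128-1-5p (-0.34, SE 0.10, adjusted p = 0.0324) were lower under enrichment. Of the glial lists, 1 of 3 oligodendrocyte and 2 of 6 astroglial miRNAs were higher in 10wHC_DG, and 1 of 6 astroglial miRNAs in 10wEE_DG, against 2 weeks. In 10wHC_DG 1 of 4 leukocyte and 1 of 7 choroid plexus miRNAs were lower, and in 10wEE_DG 1 of 4 erythrocyte miRNAs was higher. Summed astroglial levels were 64200 to 69500 CPM in 10wHC_DG, against 59100 to 65300 CPM in 2wHC_DG, and 66300 to 72700 CPM in 10wEE_DG, against 61300 to 66000 CPM in 2wEE_DG. Their part in these results was not tested.

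In CA miR-128-3p was higher after 10 weeks of enrichment. It had 16260, 17770 and 19740 CPM in 10wEE_CA, against 11540, 14390 and 16750 CPM in 2wEE_CA. The ranges overlapped only narrowly, and the log2 fold change was 0.30 (SE 0.07, adjusted p = 0.0208), with 15 of 581 miRNAs called in the background (2.58%). Without library 3 of 10wEE_CA it was 0.29 (SE 0.07, adjusted p = 0.00514), and 55 of 580 miRNAs were called (9.48%). The call was lost without library 6 of 2wEE_CA (0.24, adjusted p = 0.0509), without the filter on low counts (0.27, adjusted p = 0.119) and in a fit of the 2 groups alone (0.32, adjusted p = 0.127). None of the cell type lists had a member called in this contrast with all libraries. Without library 3 of 10wEE_CA 1 of 3 oligodendrocyte miRNAs (miR-338-3p) was lower, and of 7 choroid plexus and ependymal miRNAs 1 was higher and 1 lower. Summed levels of the oligodendrocyte miRNAs were 6990 to 11000 CPM in 10wEE_CA, against 7640 to 9230 CPM in 2wEE_CA, and of the choroid plexus and ependymal miRNAs 8580 to 20000 CPM in 10wEE_CA, against 10200 to 18100 CPM in 2wEE_CA. Their part in the result was not tested. Of the other neuron-enriched miRNAs, miR-129-1-3p (0.50, adjusted p = 0.0198) and miR-129-2-3p (0.44, adjusted p = 0.0119) were higher in 10wEE_CA as well, and miR-488-3p was lower (-0.49, adjusted p = 0.000153) in the fit without library 3. In home cage, 10wHC_CA had 15410, 19050 and 19940 CPM and 2wHC_CA 14900, 16810 and 17100 CPM, and the log2 fold change of 0.14 did not pass (adjusted p = 0.763).

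Library 3 of 10wEE_CA decided several other calls of the same contrast. Without it, miR-7b-5p was lower in 10wEE_CA (39.4, 56.5 and 67.4 CPM, against 64.3, 67.6 and 80.2 CPM in 2wEE_CA; -0.39, SE 0.11, adjusted p = 0.0283). miR-153-3p was lower as well (3647, 3955 and 4250 CPM, against 3862, 4301 and 4937 CPM in 2wEE_CA; -0.17, SE 0.05, adjusted p = 0.0312). The groups overlapped for both miRNAs. With that library miR-7b-5p was at -0.14 and miR-153-3p at 0.09, neither past the threshold. miR-153-5p was higher in 10wEE_CA without it (0.33, SE 0.09, adjusted p = 0.0132). In the home cage pair, miR-7b-5p was at -0.41 (adjusted p = 0.0639) and miR-153-3p at -0.18 (adjusted p = 0.073) in the same fit without it, and did not pass.

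miR-9-5p separated the home cage groups of CA, but its call depended on the fit. All 6 libraries of 10wHC_CA (10.3, 11.5 and 16 CPM) were above all 6 of 2wHC_CA (7.2, 7.99 and 8.68 CPM), and how many of all miRNAs separated these groups fully was not counted. The counts behind these levels were 43 to 59 in 10wHC_CA and 25 to 56 in 2wHC_CA. With all CA libraries the log2 fold change was 0.57 (SE 0.17, adjusted p = 0.264), and none of the 581 miRNAs was called (0%), with 35 at an unadjusted p under 0.05 and 3 called by DESeq2. Without library 3 of 10wEE_CA it was 0.55 (SE 0.15, adjusted p = 0.0462), with 12 of 580 called (2.07%). Under enrichment miR-9-5p averaged 12.7 ± 4.23 CPM in 10wEE_CA (SD, n = 8) and 8.5 ± 1.85 CPM in 2wEE_CA (SD, n = 7), a log2 fold change of 0.47 (edgeR adjusted p = 0.107), or 0.41 (adjusted p = 0.0569) without that library.

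**Figure D4:**
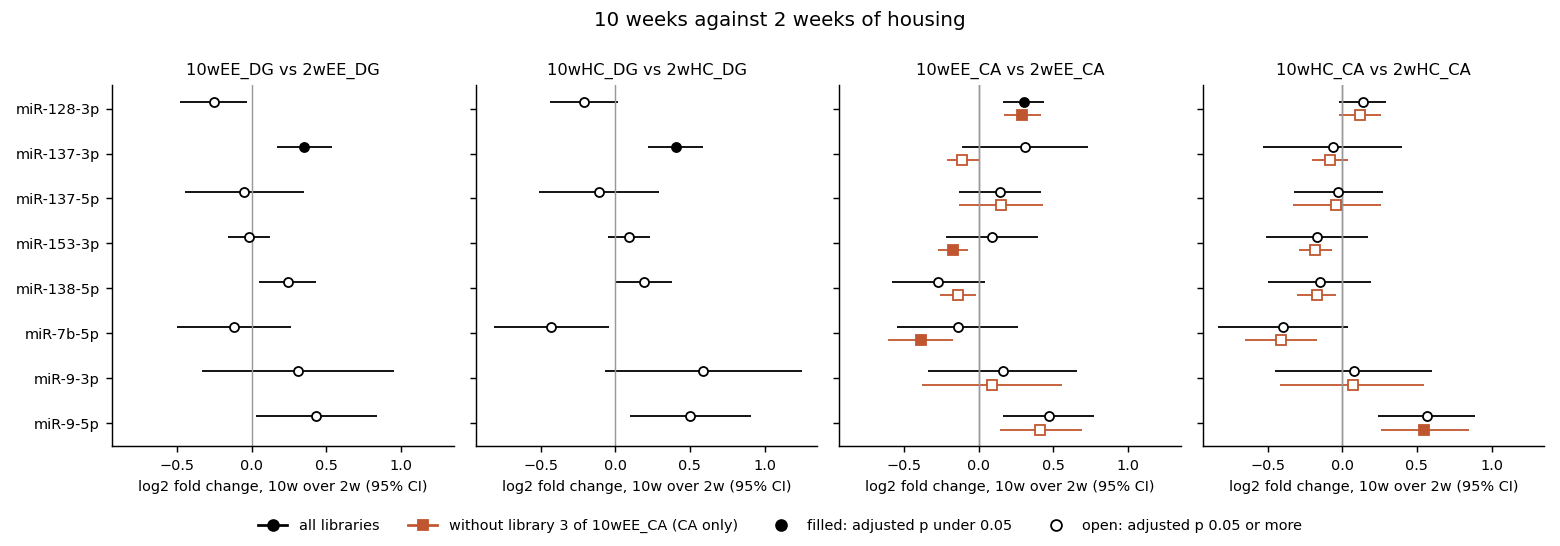
Log2 fold change of 10 over 2 weeks (x axes, with 95% interval) for the 8 tested miRNAs in the 4 pairs of groups; black circles are all libraries, orange squares the CA fits without library 3 of 10wEE_CA, and filled symbols passed an adjusted p of 0.05. miR-137-3p is at 0.35 and 0.41 in the DG panels, and miR-128-3p at 0.30 in the enriched CA panel.

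Whether the time effect differed between DG and CA was tested directly, in a contrast added after the data had been seen. Time effect here means the difference between 10 and 2 week libraries, from which a batch cannot be told apart. Under enrichment miR-128-3p differed: the log2 fold change of 10 over 2 weeks in DG minus that in CA was -0.54 (SE 0.13, adjusted p = 0.0294, with 8 of 593 miRNAs called, 1.35%), a call lost without library 4 of 2wEE_DG (-0.42, adjusted p = 0.142) and without the filter (-0.46, adjusted p = 0.124). Libraries 4 and 5 of 2wEE_DG had 27489.9 and 24488.8 CPM of miR-128-3p, against 17512.4 to 19837.6 CPM in libraries 1 to 3. They were the shallowest of that group, with 1393901 and 1117213 counts. Median depth was 1728056 counts in 2wEE_DG and 2538490 in 10wEE_DG, and the part of depth was not tested. In home cage the difference of miR-128-3p between the regions was -0.37 (SE 0.14, adjusted p = 0.144, with 13 of 593 called, 2.19%). In that contrast plain library totals moved the median of all miRNAs by 0.13 relative to TMM. Without library 3 of 10wEE_CA the enriched difference of miR-128-3p was -0.54 (SE 0.14, adjusted p = 0.0099). miR-137-3p then differed by 0.46 (SE 0.11, adjusted p = 0.00641) and miR-138-5p by 0.38 (SE 0.12, adjusted p = 0.032), with 63 of 594 called (10.6%). In home cage miR-137-3p differed by 0.50 (SE 0.12, adjusted p = 0.00421) without it, with 42 of 594 called (7.07%). With that library included, the values of miR-137-3p were 0.09 (enriched) and 0.45 (home cage) and did not pass. The part of depth was not tested for miR-137-3p and miR-138-5p either.

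The third comparison, enrichment against home cage, was the one the study was designed around. None of the 8 tested miRNAs passed in any of the 4 pairs of groups. In 10wEE_DG against 10wHC_DG the log2 fold changes ran from -0.20 to 0.00, with a median of -0.11, against 0.00 over all 525 miRNAs, of which 2 were called (0.381%). In 2wEE_DG against 2wHC_DG they ran from -0.36 to 0.17, and 3 of 525 miRNAs were called (0.571%). In 10wEE_CA against 10wHC_CA they ran from -0.11 to 0.29, and in 2wEE_CA against 2wHC_CA from -0.21 to 0.06, with 0 of 581 called (0%) in each (30 and 35 at an unadjusted p under 0.05, and 0 and 1 by DESeq2). At an unadjusted p under 0.05 there was 1 of the 8 in the 2 week CA pair and none in the other 3, and DESeq2 called none of them. Without library 3 of 10wEE_CA miR-153-3p also reached an unadjusted p under 0.05 in both CA pairs, at -0.14 after 2 weeks (adjusted p = 0.224) and -0.13 after 10 weeks (adjusted p = 0.428).

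That 1 was miR-128-3p. It had 11540, 14390 and 16750 CPM in 2wEE_CA, against 14900, 16810 and 17100 CPM in 2wHC_CA. The log2 fold change was -0.21 (SE 0.08, adjusted p = 0.468), or -0.22 without library 3 of 10wEE_CA (adjusted p = 0.122, with 9 of 580 called, 1.55%). In the other 3 pairs it was at -0.05 (10 weeks, CA), -0.11 (2 weeks, DG) and -0.15 (10 weeks, DG).

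The intervals state how large an effect of enrichment could have gone unseen. For miR-153-3p in DG they were -0.14 to 0.12 at 10 weeks and -0.04 to 0.25 at 2 weeks, on 3834 to 5214 CPM. For miR-137-3p in DG they were -0.27 to 0.07 at 10 weeks and -0.24 to 0.15 at 2 weeks. For miR-138-5p in DG they were -0.18 to 0.18 and -0.25 to 0.15. The sparse miR-9-3p allowed -0.66 to 0.43 at 10 weeks and -0.59 to 0.92 at 2 weeks. In CA the intervals were wider with library 3 of 10wEE_CA than without it: for miR-137-3p at 10 weeks -0.15 to 0.73 with it and -0.23 to 0.00 without it. Without it, in CA at 10 weeks, the log2 fold changes ran from -0.13 to 0.05 and 3 of 580 miRNAs were called (0.517%), none of them among the 8.

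Nor did the effect of enrichment differ by a passing test between 10 and 2 weeks in either region, or between DG and CA at either time. Of the 8 miRNAs 0 passed in these 4 contrasts, and in each of them 0 miRNAs at all were called (0%), with 13 to 25 at an unadjusted p under 0.05 and 0 by DESeq2. The adjusted p-values of the 8 were all at least 0.985. Among the other neuron-enriched miRNAs, 3 of 14 were higher in 2wEE_DG than in home cage, namely both arms of miR-132 (3p by 0.56, 5p by 0.55) and miR-212-3p by 0.63, with adjusted p-values of 0.00278 to 0.00492. In 10wEE_DG 1 of 14 was higher, miR-212-5p (0.40, adjusted p = 0.0421). In CA none passed with all libraries, but without library 3 of 10wEE_CA miR-132-3p and miR-212-3p were higher with enrichment at both times, by 0.33 and 0.45 at 2 weeks and by 0.34 and 0.36 at 10 weeks (adjusted p at most 0.00132). Of the opposite arms, 0 of 8 passed in any of the 4 pairs.

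**Figure D5:**
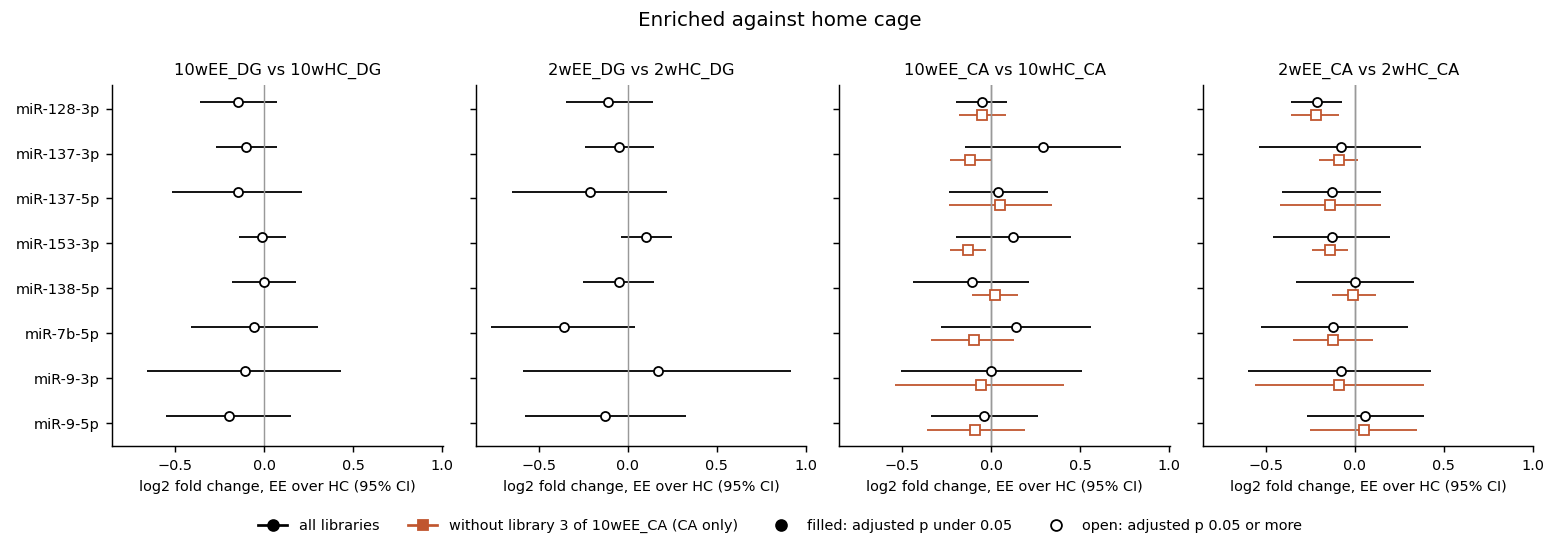
Log2 fold change of EE over HC (x axes, with 95% interval) for the 8 tested miRNAs in the 4 pairs of groups; black circles are all libraries, orange squares the CA fits without library 3 of 10wEE_CA, and all symbols are open because none passed an adjusted p of 0.05. The points run from -0.36 to 0.29 with all libraries.

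Ordered by group mean, miR-128-3p was highest in 2wHC_DG (23460 ± 3360 CPM, n = 6), followed by 2wEE_DG (21670 ± 4170, n = 5), 10wHC_DG (20320 ± 2500, n = 6), 10wHC_CA (18550 ± 1740, n = 6), 10wEE_DG (18300 ± 2440, n = 8), 10wEE_CA (17800 ± 1180, n = 8), 2wHC_CA (16570 ± 828, n = 6) and 2wEE_CA (14480 ± 1690, n = 7), all mean ± SD. Each step between neighbours down to 10wEE_CA was smaller than the larger SD of the pair, and the last 2 steps, to 2wHC_CA and to 2wEE_CA, were larger than either SD. miR-137-3p ran from 1617 ± 173 CPM in 10wHC_DG (n = 6) over 1506 ± 190 in 10wEE_DG (n = 8), 1213 ± 127 in 2wHC_DG (n = 6) and 1174 ± 147 in 2wEE_DG (n = 5) to 825 to 913 CPM in the 4 CA groups without library 3 of 10wEE_CA. In that order the 2 housings of each DG time point were neighbours that differed by less than their SD. miR-7b-5p ran from 75.1 ± 15.4 CPM in 2wHC_CA (n = 6) and 70.3 ± 5.48 in 2wEE_CA (n = 7), over 58.1 ± 11.1 in 10wHC_CA (n = 6), 57.7 ± 15 in 2wHC_DG (n = 6), 54.3 ± 9.18 in 10wEE_CA without library 3 (n = 7) and 44.4 ± 13.4 in 2wEE_DG (n = 5), to 42.9 ± 7.98 in 10wHC_DG (n = 6) and 41.2 ± 11.1 in 10wEE_DG (n = 8).

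The miRNAs whose levels ran most alike with each of the 8 were looked up among 426 miRNAs with a mean of at least 10 CPM, by Pearson's r of log2 CPM over 51 libraries (all but library 3 of 10wEE_CA). The libraries share region, time and depth, so r describes these libraries and carries no test. miR-137-3p ran closest to miR-221-3p (r = 0.94) and miR-101b-3p (0.93), and miR-137-5p to miR-222-3p (0.88) and miR-672-5p (0.88). miR-128-3p ran closest to let-7f-5p (0.83) and miR-423-5p (0.82), miR-138-5p to miR-3068-5p (0.76) and miR-350-3p (0.74), and miR-7b-5p to miR-3071-3p (0.74) and miR-376a-3p (0.72). miR-153-3p, miR-9-5p and miR-9-3p had no neighbour above 0.62. With the group means removed, the r of miR-137-3p with miR-221-3p was 0.59 and that of miR-128-3p with let-7f-5p 0.76. Among the 8 themselves, miR-137-3p and miR-137-5p had r = 0.72 over the libraries and -0.04 within groups, and miR-137-3p and miR-138-5p had -0.08 over the libraries and 0.64 within groups.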

How the data were processed

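Small RNA libraries of dissected DG and CA tissue were analysed from the read counts per mature miRNA that the authors deposited, 1 count table per library. Per the submitters' processing notes, CASAVA 1.8.2, cutadapt, STAR and HTSeq were used with mm10. Their other versions, and the annotation of miRNAs, were not found in the labels. The 5 closing rows of each table (reads given to no miRNA) were dropped, and multiply aligned reads are in no count.

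Groups and library numbers came from the sample titles. Counts were tested with edgeR 4.0.16 (quasi-likelihood, with TMM scaling and the filterByExpr filter) in R 4.3.3, with CA and DG contrasts within their region and cross-region contrasts on all 52 libraries, with 1 mean per group. P-values are two-sided and adjusted by Benjamini-Hochberg over all miRNAs of a contrast, with 0.05 as threshold. Each SE is the size of the fitted coefficient over the root of its F value. There were 13 contrasts, and 2 (time effect by region) plus the ratios of arms were added after seeing the data. Ratios used counts plus 0.5 and permutation tests in scipy 1.17.1, pooled over the housing groups of a region, which these tests do not take into account. The fits were tested on simulated data. Of 147 pairs of libraries within groups 0 held identical values.

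Alternatives were plain library totals, RLE size factors, no filter, a filter at a mean of 10 CPM, DESeq2 1.42.0, a replicate block, fits of the 2 groups alone or of 1 housing, and each library left out. The 9 miRNAs and the lists were chosen with earlier results of these data known. The text names these 9, the other arms of their genes, miR-7a, seed mates, other neuron-enriched miRNAs past the threshold, and the 2 closest miRNAs by r. Hairpin coordinates are from GENCODE M21 (mm10).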

Additional observations from a re-analysis of the deposited data

Results flagged for a closer look

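Within groups of 5 to 8 libraries, 72 combinations of miRNA and group were examined for a library far from the others, and 9 had one; chance gives about 1 in 20. Library 3 of 10wEE_CA accounted for 6: miR-137-3p at 2716 CPM (next library 943), miR-153-3p at 9114 (4250), miR-7b-5p at 168 (67.4), miR-9-3p at 9.13 (4.47), miR-9-5p at 21.9 (14.4) and, on the low side, miR-138-5p at 100.5 CPM (395). The other 3 were miR-128-3p at 14905 CPM in library 3 of 2wHC_CA (next 16767), the deepest library of the series with 6706855 counts, miR-138-5p at 366 CPM in library 6 of 10wHC_CA (next 430.5) and miR-7b-5p at 104.9 CPM in library 4 of 2wHC_CA (next 73.7).

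The 10 against 2 week effect differed between DG and CA for 3 miRNAs by a test of the difference itself. Under enrichment the difference was -0.54 for miR-128-3p (the part of depth was not tested), with and without library 3 of 10wEE_CA. Without that library it was 0.46 for miR-137-3p and 0.38 for miR-138-5p under enrichment, and 0.50 for miR-137-3p in home cage. The part of depth was not tested for these either.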

How the results depend on the processing

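Of 3095 values recomputed under an alternative, 3073 kept direction and side of the threshold (in 114 of them an uncalled value changed sign), 10 lost and 11 gained a call, and 1 reversed: miR-153-3p in 10wEE_CA against 2wEE_CA, at -0.17 without replicate 3 of 10wEE_CA (range -0.17 to 0.18 with a library left out). The count of the 8 called in 10wEE_CA against 2wEE_CA (1) became 0 without the filter (miR-128-3p adjusted p = 0.119), 0 in a fit of the 2 groups alone (0.127), and 0 to 3 with a library left out; 10wHC_CA against 2wHC_CA (0) became 1 in the fit of the 2 groups alone (miR-9-5p, 0.0382), and 0 to 1 with a library left out. Leaving out a library gave 0 to 1 in 10wEE_DG against 2wEE_DG (1) and in the home cage difference of time effects between regions (0), and 0 to 3 in the enriched one (1), which was also 0 without the filter (miR-128-3p, 0.124) and without replicate 4 of 2wEE_DG (0.142). For both differences of time effects, only the libraries of 2wEE_DG and library 3 of 10wEE_CA were left out, each in turn. For all these changes of count the cause was not tested, beyond the fewer libraries or the more miRNAs tested.

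In the fit with the replicate number as a block, the count was 0 in 10wEE_CA against 2wEE_CA (miR-128-3p adjusted p = 0.0528). It was also 0 in the enriched difference of time effects (0.135), and the block changed no other call. Pairing by number was weak: 8 of 25 DG and CA pairs with the same number had a correlation over 0.1. Of those 8, 5 were among the 6 pairs of 2wHC_DG and 2wHC_CA (median 0.17), where 4 libraries correlated best with their own number. These correlations cannot settle whether libraries with the same number share an animal. For DG against CA, miR-9-5p did not pass in enriched libraries alone (0.30, adjusted p = 0.0557), miR-153-3p passed in home cage libraries alone (0.10, 0.0389), miR-138-5p passed without the filter (-0.20, 0.0347), and miR-9-3p passed without replicate 1 of 2wEE_DG (0.34, 0.0364).

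Counts over all miRNAs moved by more than 1.5 times in 10wEE_CA against 2wEE_CA (15, against 6 without the filter, 36 by DESeq2, 0 in the 2 groups alone), in 10wHC_DG against 2wHC_DG (84, against 51 without the filter, 55 in the 2 groups alone), in 10wEE_DG against 2wEE_DG (52, against 14 to 74 with a library left out), and in the differences of time effects (13 in home cage and 8 under enrichment, against 24 and 31 by DESeq2, 8 and 2 with the block, and in the second 2 without the filter and 23 with the filter at 10 CPM). They also moved in 2wEE_CA against 2wHC_CA (0, against 6 in the 2 groups alone, 1 by DESeq2, 0 to 9 with a library left out), 10wEE_CA against 10wHC_CA (0 to 3 with a library left out), 10wHC_CA against 2wHC_CA (0, against 8 in the 2 groups alone, 3 by DESeq2, 2 without the filter, 0 to 12 with a library left out), 2wEE_DG against 2wHC_DG (3, against 1 in the 2 groups alone) and 10wEE_DG against 10wHC_DG (2, against 1 with plain totals or RLE size factors, 0 with the filter at 10 CPM, the block or the 2 groups alone). miR-9-3p, miR-9-5p and miR-137-5p rest on few counts, which limits what their tests can show, and miR-124-3p could not be tested.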
